A study of Homo sapiens with 12 samples.

Results

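Expression of 37 genes of the hypoxia response and of glycolysis was followed in 2 human prostate cancer cell lines after FOXA1 had been lowered with siRNA. The genes were taken by symbol from the gene-level count tables, and all 37 had a row among the 60106 genes of each table. By role they comprise 2 alpha subunits of the hypoxia-inducible factors (HIF), 2 HIF prolyl hydroxylases, 3 hypoxia-induced secreted factors and 4 hypoxia-induced stress and mitophagy genes. A further 3 are collagen prolyl and histone hydroxylases, 3 carry glucose or lactate, 11 act in upper and 5 in lower glycolysis, and 4 decide the fate of pyruvate.

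PC3, a line from a bone metastasis, was transfected with 20 nM of a non-targeting siRNA (NSI) or of an siRNA against FOXA1 (siFOXA1) and kept in RPMI-1640. VCaP, a line with the TMPRSS2-ERG fusion, received 40 nM of the same 2 kinds of siRNA in DMEM. RNA was taken 72 hours later from 3 replicates of each of the 4 groups, 12 libraries in all. PC3 libraries were made with a polyA mRNA kit and VCaP libraries with a total RNA kit, so line, dose, medium and kit cannot be told apart. No label names a low-oxygen treatment, and all groups share the incubator settings. Each line is an established culture with no untransfected group, and the labels do not say whether replicates came from separate cultures or transfections, so the p-values measure only the spread between these samples.

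HIF1A and EPAS1 (HIF2 alpha) are transcription factor subunits whose protein is hydroxylated by the EGLN enzymes when oxygen is present, bound by the VHL ligase complex and degraded. When oxygen is low they accumulate, pair with ARNT and bind a short core motif near target genes for blood vessel growth, glucose uptake, glycolysis and lactate export. The same genes are also set by growth signalling and by cell identity, and the mRNA of a HIF subunit does not measure its protein. FOXA1 is a forkhead transcription factor that opens chromatin in luminal prostate cells.

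Library totals were 123140099 to 188226483 counts in PC3 and 48187047 to 59839211 in VCaP. FOXA1 itself read 303, 244 and 266 CPM with NSI and 163, 182 and 162 CPM with siFOXA1 in PC3, where CPM is the count relative to the composition-scaled library total (log2 fold change −0.68 ± 0.10 SE, adjusted p = 0.00220). In VCaP it read 457, 467 and 543 CPM with NSI and 85.1, 73.5 and 83.0 CPM with siFOXA1 (−2.60 ± 0.09 SE, adjusted p = 1.84e-07), and the VCaP change minus the PC3 change was −1.94 ± 0.15 SE, adjusted p = 2.98e-07. Markers matched the lines: ERG ranged from 226 to 256 CPM in VCaP NSI libraries and reached at most 0.0715 CPM in PC3. Of 9 leukocyte, endothelial and fibroblast markers, none exceeded 4.54 CPM other than COL1A1, which averaged 20.9 CPM in PC3 NSI libraries and 31.5 with siFOXA1. The 9 summed to 21.9 to 25.1 CPM with NSI and 34.5 to 38.6 CPM with siFOXA1 in PC3, and to 6.21 to 10.3 and 5.75 to 8.86 CPM in VCaP. The part of such cells in the results was not tested. In bulk RNA, fewer cells of a type and less RNA per cell cannot be told apart.

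One VCaP library stood apart for these genes. In siFOXA1 replicate 3, 15 of the 34 members with a group mean of at least 1 CPM were more than 1.3 times the mean of the other 2 siFOXA1 libraries, 44.1% against 5.82% of all 16486 genes. Its median ratio over the members was 1.27, and 32 of 34 were above 1. The excess was largest for SLC16A3 (4.67 times), HK2 (3.05), ANKRD37 (2.48), PFKP (2.00) and VEGFA (1.95), while ADM (0.880) and EPAS1 (0.859) were lower than in its group mates. Of 32 other hypoxia-induced genes 11 also passed 1.3 times. Mitochondrial genes took 4.69% of its counts against 4.04% and 4.16% in its group mates. VCaP NSI replicate 3 had a median ratio of 1.12 with 4 of 35 members above 1.3 times, and no PC3 library had more than 3 of 36. VCaP results below are therefore given with all 6 libraries and, where the call changes, without siFOXA1 replicate 3 and without both replicate 3 libraries, the last setting chosen after the data were seen. The cause of the excess was not tested.

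**Figure D1:**
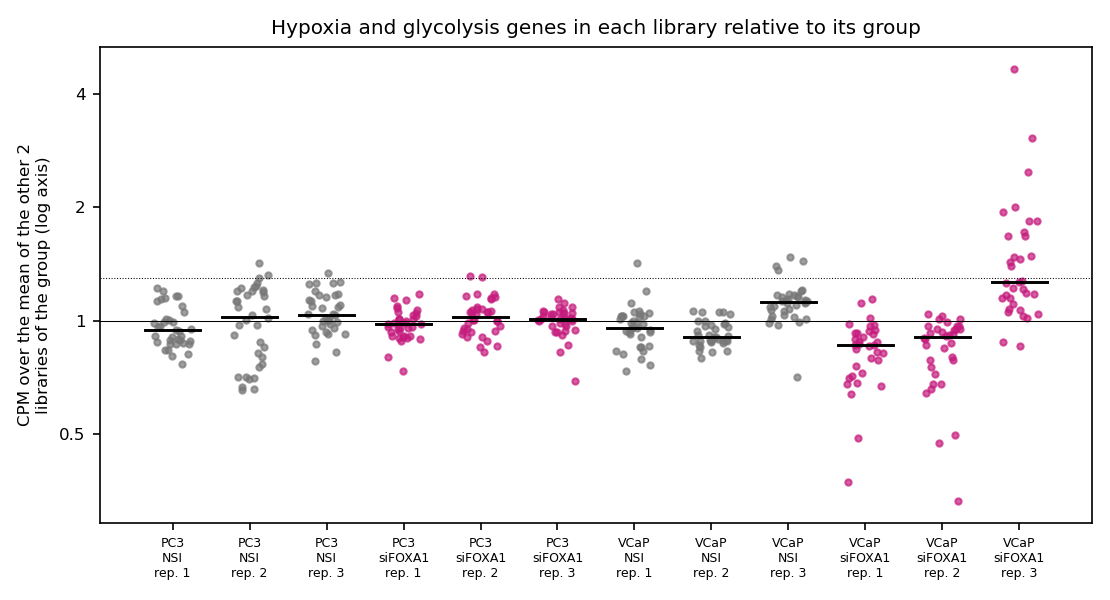
Level of each hypoxia and glycolysis gene in each library divided by the mean of the other 2 libraries of its group (log axis), with 1 point per gene with a group mean of at least 1 CPM, a bar at the median and a dotted line at 1.3. VCaP siFOXA1 replicate 3 has a median of 1.27 and 15 of 34 genes above the dotted line, and the other libraries have at most 4.

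Promoter windows are shown for 5 members that differ in the HIF core motif and whose values are described below. The windows span 250 bases before to 50 bases after a start site, from RefSeq on GRCh38.p14, a different build from the GRCh37 coordinates of the count tables. The search used ACGTG and GCGTG, the forms of the HIF core, and the forkhead words TGTTTAC and TGTTTGC, on both strands, and a palindromic CACGTG counts on each. Capitals mark ACGTG or GCGTG on either strand, written as CACGT or CACGC where the match is on the other strand. Where a gene has several windows, the one with the most ACGTG is printed. ANKRD37, an ankyrin repeat gene induced by hypoxia, holds 3 ACGTG matches (chr4:185396591-185396890 on the plus strand). PFKFB3 holds 2 (chr10:6202682-6202981 on the plus strand) and P4HA1 holds 1 (chr10:73096817-73097116 on the minus strand). LDHA holds 5 (chr11:18394313-18394612 on the plus strand), whereas its sister gene LDHB holds no ACGTG and 1 GCGTG (chr12:21657793-21658092 on the minus strand).
ANKRD37: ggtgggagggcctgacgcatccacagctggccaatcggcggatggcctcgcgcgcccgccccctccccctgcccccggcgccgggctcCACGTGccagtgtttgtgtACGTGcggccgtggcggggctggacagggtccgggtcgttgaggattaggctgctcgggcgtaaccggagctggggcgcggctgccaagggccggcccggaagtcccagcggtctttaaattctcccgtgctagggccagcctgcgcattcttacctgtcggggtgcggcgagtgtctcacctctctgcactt
PFKFB3: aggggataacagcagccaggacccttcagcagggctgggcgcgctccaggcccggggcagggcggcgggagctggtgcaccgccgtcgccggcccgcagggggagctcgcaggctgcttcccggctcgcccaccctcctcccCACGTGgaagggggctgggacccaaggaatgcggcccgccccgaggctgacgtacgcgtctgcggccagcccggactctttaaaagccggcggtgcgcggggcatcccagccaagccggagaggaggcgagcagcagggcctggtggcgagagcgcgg
P4HA1: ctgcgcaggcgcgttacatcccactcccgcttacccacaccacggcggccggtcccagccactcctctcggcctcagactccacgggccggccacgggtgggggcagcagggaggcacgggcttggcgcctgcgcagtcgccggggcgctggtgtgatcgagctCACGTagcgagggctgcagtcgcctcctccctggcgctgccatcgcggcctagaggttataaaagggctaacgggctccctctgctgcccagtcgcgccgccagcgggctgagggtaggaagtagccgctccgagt
LDHA: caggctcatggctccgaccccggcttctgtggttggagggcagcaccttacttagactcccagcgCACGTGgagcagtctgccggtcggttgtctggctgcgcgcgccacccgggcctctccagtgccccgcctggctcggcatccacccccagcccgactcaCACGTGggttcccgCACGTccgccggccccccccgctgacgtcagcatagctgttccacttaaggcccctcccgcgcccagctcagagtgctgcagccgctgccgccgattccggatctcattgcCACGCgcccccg
LDHB: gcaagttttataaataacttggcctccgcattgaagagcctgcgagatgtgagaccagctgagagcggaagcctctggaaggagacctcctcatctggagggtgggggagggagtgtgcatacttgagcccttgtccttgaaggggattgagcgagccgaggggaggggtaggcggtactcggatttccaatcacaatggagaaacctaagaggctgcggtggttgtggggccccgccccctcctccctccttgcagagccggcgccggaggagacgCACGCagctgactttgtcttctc

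Windows were found for 33 of the 37 members, 61 windows in all. ACGTG occurred in 23 of these 61 windows (37.7%), against 21.4% of 35116 windows of all genes. Counted by gene, 19 of 33 members (57.6%) had it in at least 1 window, against 24.9% of 27305 genes. GCGTG occurred in 42.6% of member windows against 36.5% of all, and in 21 of 33 members (63.6%) against 40.6% of genes. Members had more windows per gene (61 for 33) than all genes (35116 for 27305), which raises a share counted by gene. Overlapping windows of a gene can hold the same match, as for ACGTG in PFKM and GCGTG in KDM3A. The members were listed as hypoxia and glycolysis genes, and the windows of all genes were not matched to theirs in base composition. No excess is read from these shares. A forkhead word occurred in 2 of the 61 windows (3.28%), against 7.17% of all windows. A match describes the letters of a window and shows no binding, and HIF and FOXA1 also act at distant enhancers that these windows do not cover.

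In PC3, all 37 members could be tested, and 9 rose, 2 fell and 26 did not pass an adjusted p of 0.05. The edgeR quasi-likelihood test called 13.9% of all 26478 genes higher and 13.9% lower. The median log2 fold change of the members was 0.17, against −0.014 for all genes, and 29 of 37 were above 0. In VCaP, where 36 members could be tested, 12 rose, 7 fell and 17 did not pass, against 22.5% of 22939 genes called higher and 23.3% lower. The VCaP median was 0.22 against 0.022 for all genes. Without siFOXA1 replicate 3 the VCaP counts were 10 higher and 11 lower with a median of −0.03, against a background of 20.5% and 21.4%. Without both replicate 3 libraries they were 12 and 11 with a median of 0.04, against 22.1% and 22.4%.

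The replicate numbers paired the PC3 libraries by the check described under processing. With the replicate number as a block, PC3 had 14 higher and 2 lower members, against 19.7% of all genes called higher and 23.1% lower in that fit. The 5 added were ANGPTL4 (0.26, adjusted p = 0.0441), BNIP3L (0.24, adjusted p = 0.0184), PGK1 (0.22, adjusted p = 0.0172), PKM (0.28, adjusted p = 0.00845) and SLC16A3 (0.26, adjusted p = 0.0199), each given as the blocked log2 fold change. The 9 higher and 2 lower members called without the block were also called with it. Unless the block is named, PC3 values below are from the fit without it. Where a PC3 call is lost below, the blocked adjusted p was 0.00182 for EPAS1, 0.00108 for P4HA1 and 0.000199 for HK2. It was 0.000581 for PFKL, 0.00299 for PFKM and 0.000247 for LDHB. Scaling by library size alone, which moves the median of all PC3 genes from −0.014 to 0.076 and the higher share of all calls from 50.04% to 64.3%, gave 13 higher members and 1 lower, against 17.4% and 9.68% of all genes. Leaving out PC3 NSI replicate 2 gave 14 higher and 3 lower, against 15.9% and 12% of all genes. Leaving out siFOXA1 replicate 1 gave 6 higher, with 9.02% of all genes called higher and 5.64% lower. Leaving out siFOXA1 replicate 3 gave 6 higher and 1 lower, against 9.88% and 8.94%.

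**Figure D2:**
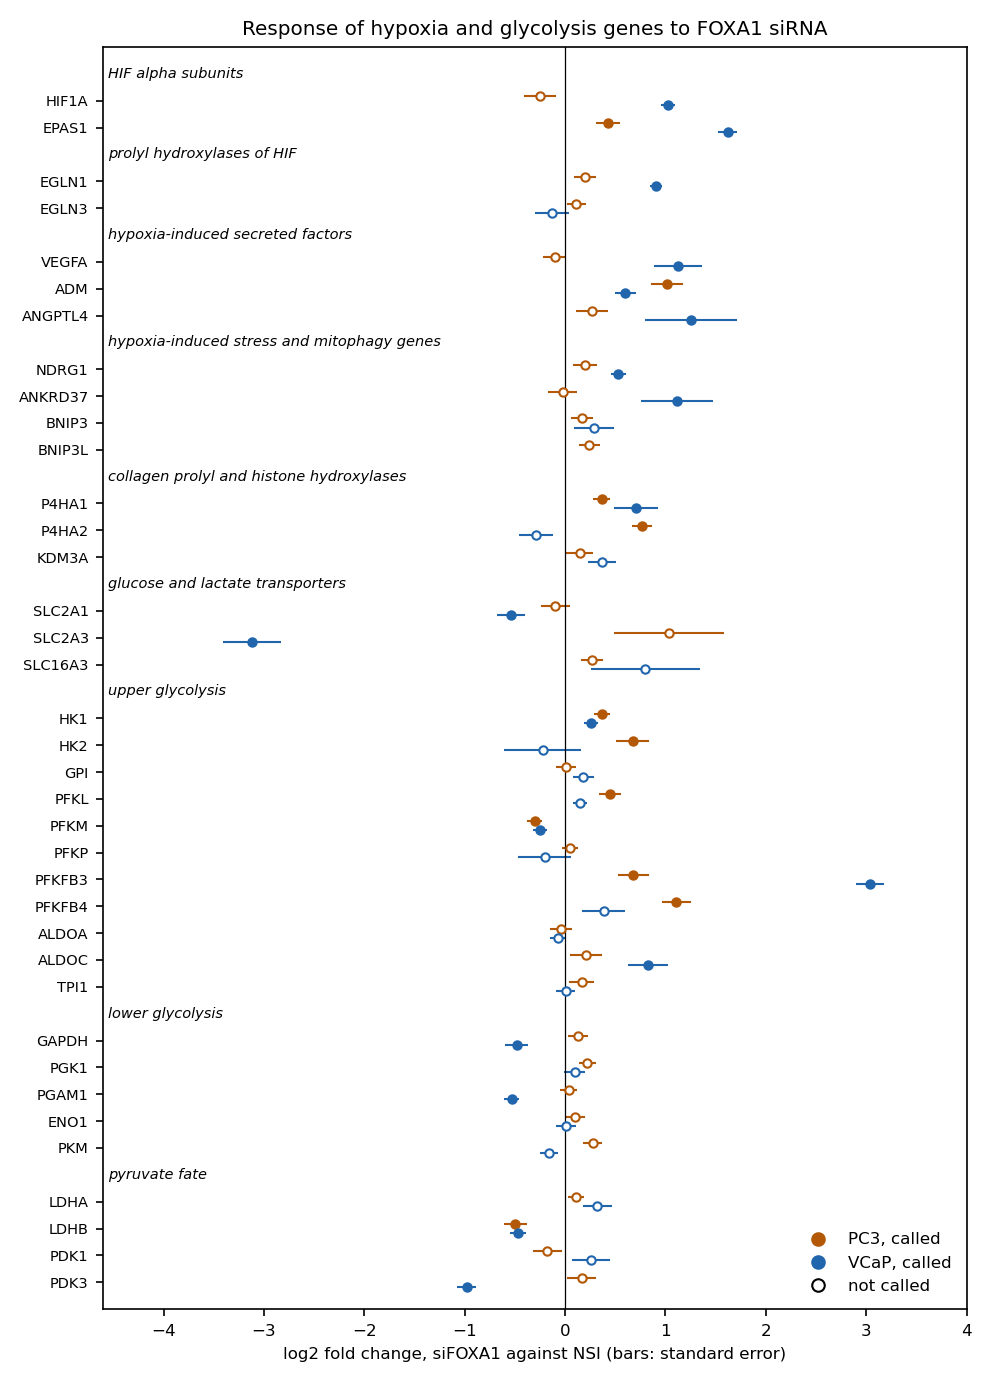
Log2 fold change of siFOXA1 against NSI for each gene in PC3 (orange) and VCaP (blue), ordered by role, with bars for the standard error and filled points for an adjusted p under 0.05. PFKFB3 in VCaP (3.04) and SLC2A3 in VCaP (−3.11) lie farthest from 0, and PC3 changes called are between −0.50 and 1.11.

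The HIF alpha subunits rose in VCaP. HIF1A (ENSG00000100644.16_4, chr14:62162258-62214977, plus strand) read 119, 129 and 125 CPM with NSI and 236, 258 and 265 CPM with siFOXA1 (log2 fold change 1.03 ± 0.07 SE, adjusted p = 4.01e-06). EPAS1 (ENSG00000116016.13_2, chr2:46524541-46613842, plus strand) read 21.6, 17.6 and 21.1 CPM with NSI and 67.4, 62.2 and 55.7 CPM with siFOXA1 (1.62 ± 0.10 SE, adjusted p = 1.75e-06). Neither pair of groups overlapped, HIF1A being 2.04 and EPAS1 3.07 times its NSI mean. In PC3, HIF1A read 819, 540.2 and 799 CPM with NSI and 612, 547 and 661 CPM with siFOXA1, with overlapping groups (−0.25 ± 0.16 SE, adjusted p = 0.279). PC3 NSI replicate 2 lay below its group mates, and without it the HIF1A log2 fold change was −0.37 with an adjusted p of 0.0225. EPAS1 rose in PC3 too, with 45.8, 33.5 and 43.0 CPM with NSI and 55.3, 52.3 and 57.0 CPM with siFOXA1 (0.43 ± 0.12 SE, adjusted p = 0.0301), and this call was lost without NSI replicate 3 (adjusted p = 0.0687), siFOXA1 replicate 1 (0.0680) or siFOXA1 replicate 3 (0.0909). The difference between the lines, given here and below as the VCaP log2 fold change minus that of PC3, was 1.26 ± 0.19 SE, adjusted p = 0.000202 for HIF1A and 1.17 ± 0.17 SE, adjusted p = 0.000109 for EPAS1. Per kilobase of exon, HIF1A remained the more abundant subunit, although its share of the 2 was lower with siFOXA1, going from 95.5% ± 0.315 to 93.0% ± 0.340 in PC3 and, in VCaP, from 88.2% ± 1.49 to 83.2% ± 2.14, with no overlap between groups in either line.

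Of the HIF prolyl hydroxylases, which mark HIF alpha for degradation, EGLN1 rose in VCaP and EGLN3 was not called in either line. EGLN1 (ENSG00000135766.8_2, chr1:231499497-231560790, minus strand) read 36.5, 38.1 and 39.7 CPM with NSI and 69.8, 70.9 and 73.3 CPM with siFOXA1 (0.91 ± 0.06 SE, adjusted p = 2.37e-06), a narrow spread in both groups. In PC3 it read 46.0, 38.8 and 48.2 CPM with NSI and 56.5, 47.5 and 48.6 CPM with siFOXA1 (0.20 ± 0.11 SE, adjusted p = 0.220), and the difference between the lines was 0.69 ± 0.14 SE, adjusted p = 0.00172. EGLN3, itself a gene induced by hypoxia in many cells, had log2 fold changes of 0.11 in PC3 and −0.13 in VCaP. Its share of the per-length EGLN1 and EGLN3 total moved from 12.1% ± 0.667 to 6.25% ± 1.19 in VCaP.

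All 3 secreted factors rose in VCaP and 1 of 3 in PC3, against 22.5% and 13.9% of all genes called higher. ADM (ENSG00000148926.9_3, chr11:10326227-10328944, plus strand) encodes adrenomedullin, a vasodilator peptide, and rose in both lines. It read 15.1, 19.1 and 15.8 CPM with NSI and 35.0, 40.1 and 26.0 CPM with siFOXA1 in PC3 (1.01 ± 0.16 SE, adjusted p = 0.00273) and 9.10, 7.88 and 9.83 CPM with NSI and 14.6, 13.7 and 12.4 CPM with siFOXA1 in VCaP (0.60 ± 0.10 SE, adjusted p = 0.00114). No siFOXA1 library of either line reached down to its NSI range, and in VCaP replicate 3 was the lowest of the siFOXA1 group. VEGFA (ENSG00000112715.21_5, chr6:43737950-43754224, plus strand), the main blood vessel growth factor, read 15.7, 17.1 and 19.8 CPM with NSI and 30.1, 27.9 and 56.5 CPM with siFOXA1 in VCaP (1.12 ± 0.24 SE, adjusted p = 0.00413). Replicate 3 held the highest VEGFA value, and without it the log2 fold change was 0.72, adjusted p = 0.000359. In PC3 VEGFA ranged from 210.0 to 273 CPM over the 6 libraries (−0.10 ± 0.11 SE, adjusted p = 0.523), and the difference between the lines was 1.21 ± 0.29 SE, adjusted p = 0.00674. ANGPTL4, an inhibitor of lipoprotein lipase, was scarce in VCaP, at 0.366, 0.159 and 0.538 CPM with NSI and 0.615, 0.556 and 1.41 CPM with siFOXA1. Its VCaP call (1.25 ± 0.46 SE, adjusted p = 0.0492) was lost without siFOXA1 replicate 3 (0.70, adjusted p = 0.189), without NSI replicate 1 (adjusted p = 0.106) and without NSI replicate 2 (0.140). Without both replicate 3 libraries it was called higher (1.14, adjusted p = 0.0273).

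**Figure D3:**
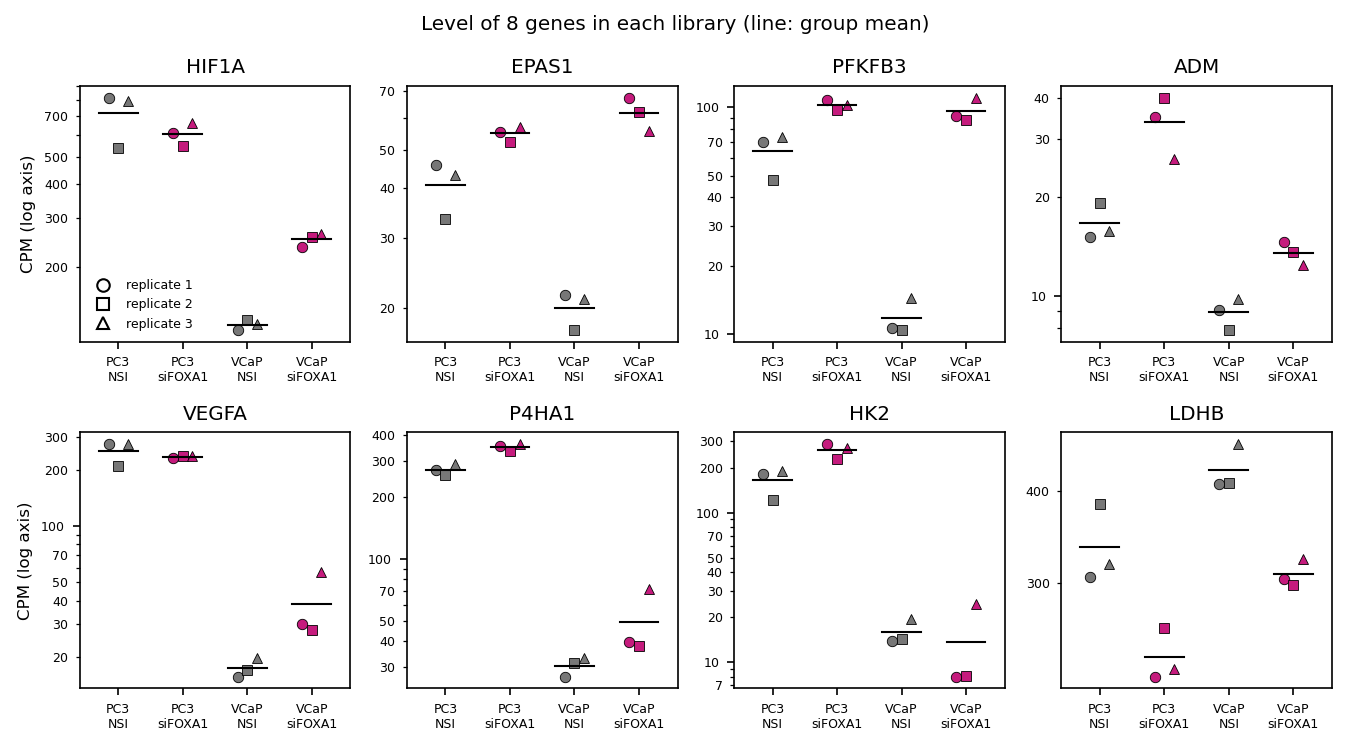
CPM of 8 genes in each library on a log axis, grey for NSI and pink for siFOXA1, with a symbol for each replicate number and a line at the group mean. HIF1A, EPAS1 and PFKFB3 rise in all 3 VCaP siFOXA1 libraries, whereas for HK2 the third replicate (24.6 CPM) lies apart from 8.01 and 8.12 CPM.

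Among the stress and mitophagy genes, NDRG1 and ANKRD37 rose in VCaP. In PC3 none of these 4 was called by edgeR without the block or by DESeq2, BNIP3L was called higher with the block (0.24, adjusted p = 0.0184), and 1 was higher at an unadjusted p under 0.05 with either tool. NDRG1, a stress-responsive gene that is also induced by androgen, was 1 of the most abundant members and read 851, 777 and 838 CPM with NSI and 1204, 1148 and 1211 CPM with siFOXA1 in VCaP (0.53 ± 0.07 SE, adjusted p = 0.000314). Here replicate 3 did not stand apart, and without both replicate 3 libraries the log2 fold change was 0.53, adjusted p = 0.000250. ANKRD37 read 1.04, 1.27 and 1.35 CPM with NSI and 2.02, 1.53 and 4.41 CPM with siFOXA1 (1.12 ± 0.36 SE, adjusted p = 0.0292), and without siFOXA1 replicate 3 it was 0.54, adjusted p = 0.0542. Its call was also lost without NSI replicate 1 (adjusted p = 0.0917), 2 (0.0703) or 3 (0.0560), and it held without both replicate 3 libraries (0.62, adjusted p = 0.0348). BNIP3, a mitochondrial outer membrane protein that directs mitophagy, was not called in VCaP, and its log2 fold change of 0.29 became −0.03, adjusted p = 0.863 without siFOXA1 replicate 3. BNIP3L, its paralog, averaged 125 ± 12.8 and 147 ± 12.4 CPM in PC3 NSI and siFOXA1 libraries, but in VCaP it had 3, 0 and 1 counts with NSI and 0, 1 and 0 with siFOXA1. A floor of 3 counts corresponds to 0.0521 to 0.0597 CPM in these VCaP libraries, so BNIP3L was under the filter on low counts and no fold is given.

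The collagen prolyl hydroxylases, which modify procollagen and are HIF targets, split between the lines. P4HA1 (ENSG00000122884.12_2, chr10:74766975-74856732, minus strand) rose in both, and read 270.0, 256 and 289 CPM with NSI and 353, 337 and 362 CPM with siFOXA1 in PC3 (0.37 ± 0.08 SE, adjusted p = 0.0134). That PC3 call was lost without siFOXA1 replicate 3 (adjusted p = 0.0536) and with all 12 libraries in 1 fit (0.101). In VCaP it read 26.8, 31.2 and 33.1 CPM with NSI and 39.7, 37.8 and 71.3 CPM with siFOXA1 (0.71 ± 0.22 SE, adjusted p = 0.0240). The VCaP change was 0.35, adjusted p = 0.0118 without siFOXA1 replicate 3, and the call was lost without NSI replicate 1 (adjusted p = 0.0848) or 2 (0.0609) and with DESeq2 (0.10). P4HA2 (ENSG00000072682.18_3, chr5:131527531-131563775, minus strand) rose in PC3 alone, with 19.2, 23.4 and 19.7 CPM with NSI and 34.9, 34.6 and 36.4 CPM with siFOXA1 (0.77 ± 0.10 SE, adjusted p = 0.000947). In VCaP it read 4.69, 3.56 and 4.24 CPM with NSI and 2.82, 3.20 and 4.20 CPM with siFOXA1 (−0.29 ± 0.17 SE, adjusted p = 0.187) and was called lower without siFOXA1 replicate 3 (−0.47, adjusted p = 0.0335) and without both replicate 3 libraries (−0.46, adjusted p = 0.0420). The difference between the lines was −1.07 ± 0.19 SE, adjusted p = 0.000841 for P4HA2. KDM3A, a histone H3 lysine demethylase, was called in neither line, with log2 fold changes of 0.15 in PC3 and 0.37 in VCaP. The VCaP value lay near the threshold (adjusted p = 0.0581) and was called higher in 5 of 15 alternatives. Without siFOXA1 replicate 3 it was 0.15, adjusted p = 0.105.

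Both glucose transporters fell in VCaP. SLC2A1 (GLUT1; ENSG00000117394.21_3, chr1:43391046-43424847, minus strand) read 23.0, 21.8 and 26.1 CPM with NSI and 13.9, 14.5 and 20.4 CPM with siFOXA1 (−0.54 ± 0.14 SE, adjusted p = 0.0115). SLC2A3 (GLUT3; ENSG00000059804.15_2, chr12:8071826-8088871, minus strand) read 3.06, 2.37 and 1.93 CPM with NSI and 0.416, 0.179 and 0.247 CPM with siFOXA1 (−3.11 ± 0.29 SE, adjusted p = 2.70e-05), which left it at 0.115 times its NSI mean. In PC3 SLC2A3 stayed at or below 0.167 CPM in every library, and its positive fold (1.03 ± 0.55 SE, adjusted p = 0.193) rests on that level. The difference between the lines was −4.15 ± 0.61 SE, adjusted p = 0.000134. SLC2A1 in PC3 ranged from 88.6 to 132 CPM (−0.10 ± 0.14 SE, adjusted p = 0.646). For SLC2A1 the difference between the lines was not called (−0.46 ± 0.22 SE, adjusted p = 0.158). SLC16A3 (MCT4), which exports lactate, was called in neither line. In VCaP it read 2.46, 2.79 and 3.89 CPM with NSI and 2.50, 2.26 and 11.1 CPM with siFOXA1, so its log2 fold change of 0.80 came from replicate 3 and was −0.36, adjusted p = 0.191 without it. Its exons overlap CSNK1D on the other strand, whose counts were 49.1% of those of SLC16A3 in PC3, where strand was ignored.

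In upper glycolysis, 5 of 11 members rose and 1 fell in PC3, against 13.9% of all genes higher and 13.9% lower. In VCaP 3 of 11 rose (27.3%) and 1 fell, against 22.5% and 23.3%, so the rises there were near the share of all genes. The widest VCaP change of the 37 genes upward was that of PFKFB3 (ENSG00000170525.20_5, chr10:6186897-6296607, plus strand), which makes fructose 2,6-bisphosphate, the activator of phosphofructokinase. It read 10.6, 10.4 and 14.3 CPM with NSI and 91.8, 88.2 and 110.4 CPM with siFOXA1 (3.04 ± 0.14 SE, adjusted p = 4.37e-07), 8.24 times the NSI mean. Leaving out siFOXA1 replicate 3 left it at 2.93, adjusted p = 4.99e-07. In PC3 it read 70.1, 47.6 and 74.0 CPM with NSI and 108, 97.0 and 102 CPM with siFOXA1 (0.68 ± 0.16 SE, adjusted p = 0.0132), and the difference between the lines was 2.34 ± 0.23 SE, adjusted p = 2.72e-06. Its paralog PFKFB4 (ENSG00000114268.11_3, chr3:48555117-48594323, minus strand) rose in PC3, with 29.9, 23.3 and 35.7 CPM with NSI and 62.2, 62.0 and 67.7 CPM with siFOXA1 (1.11 ± 0.15 SE, adjusted p = 0.00101). In VCaP PFKFB4 read 14.3, 14.0 and 14.4 CPM with NSI and 14.2, 14.8 and 26.7 CPM with siFOXA1, and replicate 3 lay far above the other 5 libraries (0.38 ± 0.21 SE, adjusted p = 0.168). The per-length share of PFKFB4 in the pair was 67.3%, 67.2% and 60.3% with NSI and 19.0%, 20.3% and 26.9% with siFOXA1 in VCaP. In PC3 the same share moved the other way, from 41.4% ± 1.84 to 48.7% ± 1.77.

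The hexokinases, which trap glucose as glucose 6-phosphate, differed in their calls. HK1 (ENSG00000156515.22_4, chr10:71029740-71161640, plus strand) rose in both lines, with 416, 411 and 428 CPM with NSI and 556, 518 and 545 CPM with siFOXA1 in PC3 (0.37 ± 0.08 SE, adjusted p = 0.00967) and 93.7, 89.6 and 89.1 CPM with NSI and 103, 104 and 119 CPM with siFOXA1 in VCaP (0.26 ± 0.07 SE, adjusted p = 0.0136). HK2 (ENSG00000159399.9_3, chr2:75061108-75120486, plus strand) rose in PC3, with 181, 122 and 189.5 CPM with NSI and 287, 229 and 268 CPM with siFOXA1 (0.67 ± 0.17 SE, adjusted p = 0.0185), a call lost without siFOXA1 replicate 1 (adjusted p = 0.0563) or 3 (0.0531) and with all 12 libraries in 1 fit (0.104). In VCaP HK2 read 13.8, 14.2 and 19.6 CPM with NSI and 8.01, 8.12 and 24.6 CPM with siFOXA1 (−0.22 ± 0.39 SE, adjusted p = 0.669). Replicates 1 and 2 were below every NSI library and replicate 3 above every NSI library, and without siFOXA1 replicate 3 HK2 was called lower (−0.98, adjusted p = 0.000875), as without both replicate 3 libraries (−0.80, adjusted p = 8.22e-05). The difference between the lines for HK2 had an adjusted p of 0.185 with all libraries and 0.00114 without both VCaP replicate 3 libraries.

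Of the phosphofructokinases, which commit sugar to glycolysis, the muscle form PFKM (ENSG00000152556.16_5, chr12:48498922-48540187, plus strand) fell in both lines. It read 141, 146 and 141 CPM with NSI and 115, 116 and 117 CPM with siFOXA1 in PC3 (−0.30 ± 0.08 SE, adjusted p = 0.0187) and 125, 114 and 132 CPM with NSI and 99.9, 107 and 105 CPM with siFOXA1 in VCaP (−0.25 ± 0.07 SE, adjusted p = 0.0175). In PC3 this call did not hold without NSI replicate 1 (adjusted p = 0.0625), NSI replicate 3 (0.0626), siFOXA1 replicate 1 (0.129) or siFOXA1 replicate 3 (0.0650) and with scaling by library size alone (0.0742), and the VCaP call without siFOXA1 replicate 1 (0.0544). PFKM overlaps SENP1 on the other strand over 8.65% of its exonic length. The liver form PFKL (ENSG00000141959.16_1, chr21:45719934-45747259, plus strand) rose in PC3, with 116, 149 and 128 CPM with NSI and 173, 196 and 169 CPM with siFOXA1 (0.45 ± 0.11 SE, adjusted p = 0.0192). That call was lost without NSI replicate 1 (adjusted p = 0.0605), NSI replicate 3 (0.0774), siFOXA1 replicate 1 (0.0585) or siFOXA1 replicate 2 (0.0513). The platelet form PFKP was called in neither line with all libraries, and in VCaP it was called lower without siFOXA1 replicate 3 (−0.62, adjusted p = 0.0108) and without both replicate 3 libraries (−0.42, adjusted p = 0.00141).

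ALDOC (ENSG00000109107.13_3, chr17:26900133-26904282, minus strand), the brain form of aldolase, rose in VCaP, with 8.35, 8.10 and 9.51 CPM with NSI and 11.1, 13.9 and 21.0 CPM with siFOXA1 (0.82 ± 0.20 SE, adjusted p = 0.00824). Replicate 3 was again the highest, and without it the log2 fold change was 0.53, adjusted p = 0.00672. ALDOC in PC3 ranged from 32.7 to 49.8 CPM (0.21 ± 0.16 SE, adjusted p = 0.356). ALDOA, GPI and TPI1, which act on the sugar phosphates between these steps, were called in neither line, with log2 fold changes from −0.07 to 0.18. ALDOA shares 68.0% of its exonic length with a readthrough gene on the same strand, so its counts were divided between the 2 and its level is uncertain.

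In lower glycolysis, where ATP is made, 2 of 5 members fell in VCaP, against 23.3% of all genes called lower. In PC3 edgeR called none without the replicate block, against 13.9% of all genes higher and 13.9% lower. With the block it called 2 higher, against 19.7% of all genes. DESeq2 called 1 higher, and 2 were higher at an unadjusted p under 0.05 with either tool. GAPDH (ENSG00000111640.14_2, chr12:6643093-6647540, plus strand) read 2106, 1958 and 2311 CPM with NSI and 1372, 1419 and 1774 CPM with siFOXA1 (−0.48 ± 0.11 SE, adjusted p = 0.00731). PGAM1 (ENSG00000171314.8_2, chr10:99185917-99193198, plus strand), the phosphoglycerate mutase, read 77.5, 69.8 and 80.6 CPM with NSI and 49.97, 51.4 and 56.2 CPM with siFOXA1 (−0.53 ± 0.07 SE, adjusted p = 0.000304). Every VCaP siFOXA1 library was below every NSI library for both. VCaP minus PC3, the difference was −0.63 ± 0.18 SE, adjusted p = 0.0199 for GAPDH and −0.58 ± 0.12 SE, adjusted p = 0.00275 for PGAM1. The GAPDH difference missed the threshold without VCaP siFOXA1 replicate 1 (adjusted p = 0.0621) or 2 (0.0589). An antisense gene overlaps 19.0% of GAPDH's exonic length and held counts equal to 30.5% of GAPDH's in PC3, against 0.0225% in VCaP, where strand was used. PGK1, ENO1 and PKM had log2 fold changes of 0.09, 0.01 and −0.16 in VCaP, and PKM was called lower without siFOXA1 replicate 3 (−0.25, adjusted p = 0.0383) and without both replicate 3 libraries (−0.22, adjusted p = 0.0382). All 5 values were above 0 in PC3, from 0.03 to 0.27, and both groups of PGK1 and of PKM lay apart there. Neither passed the adjusted threshold in the fit without the replicate block, and both passed it with the block, as given above.

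Pyruvate is turned to lactate by lactate dehydrogenase, whose LDHB subunit favours the reverse reaction, and is kept out of the mitochondrial cycle by the PDK kinases. LDHB (ENSG00000111716.12_3, chr12:21788276-21810776, minus strand) fell in both lines. It read 305, 384 and 318 CPM with NSI and 224, 261 and 229 CPM with siFOXA1 in PC3 (−0.50 ± 0.11 SE, adjusted p = 0.0125) and 408, 410.5 and 463 CPM with NSI and 304, 298 and 324 CPM with siFOXA1 in VCaP (−0.47 ± 0.08 SE, adjusted p = 0.000830). The groups did not overlap in either line, and the PC3 call was lost without siFOXA1 replicate 1 (adjusted p = 0.0931). VCaP minus PC3, the difference for LDHB was 0.01 ± 0.14 SE, adjusted p = 1.000. LDHA (ENSG00000134333.13_3, chr11:18415935-18429972, plus strand) was called in neither line, its log2 fold change being 0.11 ± 0.08 SE, adjusted p = 0.346 in PC3 and 0.32 ± 0.15 SE, adjusted p = 0.105 in VCaP. Its per-length share of the 2 subunits was nevertheless higher with siFOXA1 in both lines, with 75.4%, 72.0% and 76.0% with NSI and 82.1%, 80.6% and 82.1% with siFOXA1 in PC3 and 22.7%, 23.4% and 23.0% with NSI and 31.4%, 31.2% and 38.7% with siFOXA1 in VCaP. PDK3 (ENSG00000067992.12_4, chrX:24483338-24557954, plus strand) fell in VCaP, with 10.4, 11.0 and 10.6 CPM with NSI and 5.20, 5.08 and 5.92 CPM with siFOXA1 (−0.98 ± 0.09 SE, adjusted p = 2.88e-05), and its PC3 value was 0.16 ± 0.14 SE, adjusted p = 0.425. For PDK3 the difference between the lines was −1.16 ± 0.18 SE, adjusted p = 0.000199. PDK1 was called in neither line, and its VCaP log2 fold change of 0.26 was −0.04, adjusted p = 0.758 without siFOXA1 replicate 3.

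**Figure D4:**
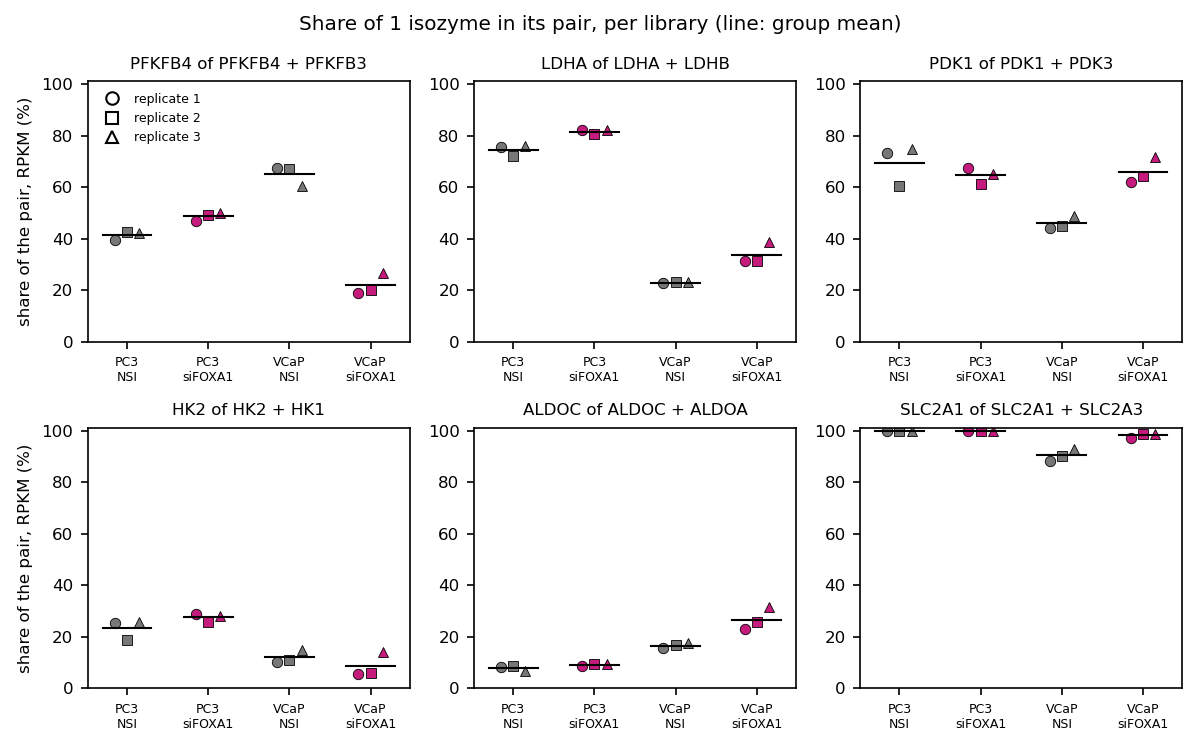
Share of 1 gene in the per-length level of a pair of isozymes or transporters (percent, from 0), per library, grey for NSI and pink for siFOXA1, with a line at the group mean. In VCaP the share of PFKFB4 goes from 65.0% to 22.0% and that of LDHA from 23.0% to 33.8%, and for LDHA the groups lie apart in PC3 as well.

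Shares were computed for 11 such families, and the groups did not overlap for 4 of 11 in PC3 and 8 of 11 in VCaP. For comparison, the CPM of the groups did not overlap for 45.1% of all genes tested in PC3 and 55.9% in VCaP, so no excess is read from these counts. In VCaP, ALDOC went from 16.6% ± 0.998 to 26.6% ± 4.35 of the aldolase pair, PDK1 from 45.9% ± 2.44 to 66.0% ± 4.97 of PDK1 and PDK3, and SLC2A1 from 90.4% ± 2.50 to 98.2% ± 0.995 of the glucose transporter pair. HK2 in VCaP overlapped, with 10.4%, 11.1% and 14.7% with NSI and 5.74%, 5.78% and 14.0% with siFOXA1. ALDOA's counts were divided with a readthrough gene on the same strand, so the aldolase share is uncertain. PDK1 has 14253 bases of annotated exons against 2513 for PDK3, which lowers its per-length level. From counts not divided by length, the VCaP change of the PDK1 share was 8.83 in place of 20.1 percentage points and the PC3 change of the LDHA share 4.71 in place of 7.10. Shares are given as a description, and no test of them was run.

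Per kilobase of exon, the most abundant members in PC3 NSI libraries were ENO1 (1380 RPKM), GAPDH (1066), PKM (621), LDHA (617) and NDRG1 (484). In VCaP NSI libraries they were GAPDH (955), LDHB (269), ENO1 (264), NDRG1 (219) and PKM (189). In PC3, counted without strand, an antisense gene held counts equal to 30.5% of GAPDH's, so the order of ENO1 and GAPDH is uncertain. LDHA exceeded LDHB in PC3, at 617 against 212 RPKM, and LDHB exceeded LDHA in VCaP, at 269 against 80.6 RPKM. The 16 enzymes from hexokinase to lactate dehydrogenase summed to 14485 ± 1193 CPM with NSI and 16035 ± 605 CPM with siFOXA1 in PC3 (SD, n = 3). In VCaP they summed to 5482 ± 409 and 4798 ± 606 CPM. The VCaP siFOXA1 sums were 4384, 4518 and 5494 CPM, so replicate 3 alone fell within the NSI range of 5088 to 5904 CPM. The levels of the 2 lines come from different library kits and are set side by side without a test.

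Between the lines, 5 members rose in both (EPAS1, ADM, P4HA1, HK1 and PFKFB3) and 2 fell in both (PFKM and LDHB), of 36 tested in both. Over all genes tested in both, 4.57% rose in both and 6.48% fell in both. No member was called in opposite directions, 4 were called in PC3 alone (P4HA2, HK2, PFKL and PFKFB4), 12 in VCaP alone and 14 in neither. The test of the difference itself called 5 members more positive in VCaP (HIF1A, EPAS1, EGLN1, VEGFA and PFKFB3) and 5 more negative (P4HA2, SLC2A3, GAPDH, PGAM1 and PDK3), against 11.1% and 11.1% of 30450 genes. Without both VCaP replicate 3 libraries the counts were 5 and 9, against 7.6% and 7.59% of all genes, with HK2, PFKP, PFKFB4 and PKM added. Of the regulators, HIF1A, EPAS1 and EGLN1 were on the positive side and EGLN3 was not called. PFKFB3, of upper glycolysis, had the largest positive difference (2.34). Of the lower glycolytic enzymes, GAPDH and PGAM1 were on the negative side. PGK1, ENO1 and PKM were not called in the main fit of all libraries. PKM lay near the threshold there (−0.45, adjusted p = 0.0512). It was called more negative in VCaP in 12 of 20 alternatives. These included DESeq2 (adjusted p = 0.00402) and library size alone (0.0133), both with all 12 libraries.

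Other genes of the pathway were read from 7 lists, whose counts stand against the shares of all genes, 13.9% higher and 13.9% lower in PC3 and 22.5% and 23.3% in VCaP, and all-gene median log2 fold changes of −0.014 and 0.022. Of the other oxygen-sensing genes, 2 of 12 rose and 2 fell in PC3, and 3 rose and 3 fell in VCaP, which is near those shares. VHL, the substrate receptor of the ligase that destroys HIF alpha, fell in PC3 (83.8 ± 13.1 to 49.0 ± 4.76 CPM, log2 fold change −0.78, adjusted p = 0.00338) and rose in VCaP (122 ± 5.25 to 165 ± 5.86 CPM, log2 fold change 0.43, adjusted p = 0.000446). In PC3 EGLN2, the third HIF prolyl hydroxylase, fell as well (log2 fold change −0.66, adjusted p = 0.0129). CITED2, which competes with HIF for its coactivators, rose in PC3 (log2 fold change 0.59, adjusted p = 0.00559) and fell in VCaP (log2 fold change −0.39, adjusted p = 0.00159). ARNT2, a partner of HIF alpha, fell in VCaP (27.1 ± 1.45 to 16.1 ± 0.170 CPM, log2 fold change −0.76, adjusted p = 1.57e-05).

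Of the other hypoxia-induced genes, 12 of 38 rose and 5 fell in PC3, with a median log2 fold change of 0.22. In VCaP 15 of 33 rose and 6 fell with a median of 0.12, and without both replicate 3 libraries 15 rose and 12 fell. DDIT4, an inhibitor of mTORC1 signalling, fell in PC3 (134 ± 11.3 to 84.6 ± 12.2 CPM, log2 fold change −0.66, adjusted p = 0.00474) and rose in VCaP (8.53 ± 0.629 to 21.4 ± 6.15 CPM, log2 fold change 1.33, adjusted p = 0.000277). LOX, the collagen crosslinking enzyme (5.92 ± 0.628 to 1.77 ± 0.968 CPM, log2 fold change −1.74, adjusted p = 0.00109), and the lipoprotein receptor VLDLR (91.8 ± 12.0 to 29.1 ± 3.63 CPM, log2 fold change −1.66, adjusted p = 4.17e-06) fell in VCaP. MXI1, an antagonist of MYC, fell in PC3 (log2 fold change −1.01, adjusted p = 0.000623).

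Of the other glycolytic enzymes, 7 of 15 rose and 1 fell in PC3, whereas 1 of 14 rose and 3 fell in VCaP. HKDC1, a hexokinase relative, rose in PC3 (5.94 ± 0.611 to 14.5 ± 0.959 CPM, log2 fold change 1.29, adjusted p = 0.000106), and ADPGK, an ADP-dependent glucokinase, fell in VCaP (45.2 ± 2.54 to 29.7 ± 0.643 CPM, log2 fold change −0.61, adjusted p = 3.92e-05). Of the other sugar and lactate carriers, 2 of 9 rose and 2 fell in PC3, and 1 of 7 rose and 3 fell in VCaP. The fructose transporter SLC2A5 had the widest rise, in PC3 (0.223 ± 0.0764 to 3.50 ± 0.253 CPM, log2 fold change 3.98, adjusted p = 1.27e-05). Around pyruvate dehydrogenase, 2 of 12 genes rose and 1 fell in PC3, and none of 11 rose and 3 fell in VCaP by the edgeR test. DESeq2 gave the same VCaP counts, and no gene of this list was higher at an unadjusted p under 0.05 with either tool. MPC2, a subunit of the mitochondrial pyruvate carrier, fell in VCaP (141 ± 13.0 to 60.7 ± 4.37 CPM, log2 fold change −1.21, adjusted p = 4.62e-06). PDK4, another kinase of the dehydrogenase, rose in PC3 (7.51 ± 0.678 to 13.2 ± 0.745 CPM, log2 fold change 0.81, adjusted p = 0.000911). Pyruvate carboxylase (PC) fell in PC3 (log2 fold change −0.27, adjusted p = 0.0365) and rose in VCaP (log2 fold change 0.72, adjusted p = 7.44e-05), while 1 of 5 and 1 of 4 gluconeogenic genes rose and as many fell. In the pentose phosphate pathway 1 of 7 rose and 3 fell in PC3, and 2 rose and 1 fell in VCaP. Transketolase (TKT) was among those that fell in PC3 (log2 fold change −0.34, adjusted p = 0.0320) and rose in VCaP (log2 fold change 0.28, adjusted p = 0.0373).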

How the data were processed

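Each library has a table of estimated counts by gene. The featureCounts program (2.0.0), per the file headers, gave the authors these expected counts over the exons of a GENCODE annotation on GRCh37, without strand in PC3 and on the reverse strand in VCaP, and it split fragments with several mapping places or several genes among them. The submitters' processing notes name STAR 2.7.3a and Subread 2.0.0. Between 54.8% and 75.2% of the nonzero values of a library were not whole, so counts were rounded.

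Groups and replicate numbers came from the sample titles. Each line was fitted on its 6 libraries with edgeR 4.0.16 in R 4.3.3 (TMM factors, default filterByExpr, two-sided quasi-likelihood test), with Benjamini-Hochberg adjustment across every gene in the fit and a call at 0.05. An interaction term over the 12 libraries tested how the lines differed. Standard errors are the log2 fold change over the square root of F. Variation between replicates, from the common dispersion of edgeR, was 14.9% in PC3 and 9.89% in VCaP, as a coefficient of variation. The steps were tested on simulated data. CPM uses the TMM factors, and RPKM divides CPM by the annotated exonic length. Tables and plots were made with Python 3.11.15, pandas 2.3.3 and matplotlib 3.10.9. Alternatives were DESeq2 1.42.0 and its size factors, library size alone, upper-quartile factors, no filter, the replicate block and a fit of all 12 libraries. Others were added counts of overlapping genes with clone names, isozyme shares without division by length, and leaving out each library.

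The members and the lists of other genes were chosen with earlier results of these data known, and members are described rather than tested as a set. Members called in a line are given with the value of each library of that line. Of each list at most 2 called rises and 2 called falls per line, the largest with a mean of at least 1 CPM, were eligible to be named. No 2 replicates were copies, with chi-square per degree of freedom between 9.77 and 141. Same-numbered PC3 libraries deviated together at genes of at least 5 CPM (correlations 0.66, 0.72 and 0.30 over 12313 genes, and 0.15, 0.31 and 0.09 over all genes tested), so the numbers were taken as pairing in PC3. In VCaP the correlations were 0.18, −0.05 and 0.41 over 11798 genes of at least 5 CPM, and 0.06, 0.04 and 0.28 over all genes tested. The numbers were not taken as pairing there, although VCaP replicate 3 (0.41) exceeded PC3 replicate 3 (0.30). The lines thus differ in degree in this check. The labels do not say what a number shares. Some listed genes are counted but not reported here by name.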

Additional observations from a re-analysis of the deposited data

Results flagged for a closer look

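The response to FOXA1 siRNA of 10 members differed between the lines by the interaction test, as VCaP minus PC3 log2 fold change. It was more positive in VCaP for HIF1A (1.26), EPAS1 (1.17), EGLN1 (0.69), VEGFA (1.21) and PFKFB3 (2.34). It was more negative in VCaP for P4HA2 (−1.07), SLC2A3 (−4.15), GAPDH (−0.63), PGAM1 (−0.58) and PDK3 (−1.16). SLC2A3 was at most 0.167 CPM in PC3. FOXA1 also fell further in VCaP, and line, siRNA dose, medium, library kit and strand counting cannot be told apart in this design.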

How the results depend on the processing

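Leaving out 1 library at a time moved the higher and lower members from 9 and 2 to between 6 and 14 and between 0 and 3 in PC3, and from 12 and 7 to between 9 and 13 and between 6 and 11 in VCaP. Over all genes, these fits called 9.02% to 15.9% higher and 5.64% to 13.0% lower in PC3. In VCaP they called 18.4% to 21.1% higher and 18.7% to 21.8% lower. Members more positive and more negative in VCaP, 5 and 5, ranged from 5 to 7 and from 4 to 10, against 8.24% to 11.6% and 8.37% to 13.3% of all genes. The more negative were 10 without VCaP siFOXA1 replicate 3, against 8.70% of all genes, and 8 without PC3 NSI replicate 2, against 13.3%. Without both VCaP replicate 3 libraries, chosen after seeing the data, 11 members were lower in VCaP and 9 more negative, against 22.4% and 7.59% of all genes. Library size alone left 1 member lower in PC3, against 9.68% of all genes. No filter on low counts gave 8 more negative, against 6.13%. Under the replicate block, PC3 had 14 higher, VCaP 14 higher and 7 lower, and the difference between the lines 8 more positive and 11 more negative, against 25.2% and 24.8% of all genes in VCaP and 15.04% and 13.96% for the difference. The block gave the same lower counts in both lines.

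Some members that were not called changed sign, and the cause was not tested. In PC3, ANKRD37 was 0.066 with library size alone, 0.038 with upper-quartile factors and 0.020 in the fit of 12 libraries, and ALDOA 0.048, 0.021 and 0.0018. Over PC3 libraries left out, ANKRD37 ranged from −0.12 to 0.10, SLC2A1 from −0.20 to 0.019, GPI from −0.045 to 0.13 and ALDOA from −0.12 to 0.10. In VCaP, TPI1 was −0.0021 with DESeq2 size factors, −0.0090 with library size alone, −0.0069 with no filter, −0.011 with DESeq2 and −0.022 without both replicate 3 libraries. ENO1 was −0.0056 with library size alone, −0.0029 with no filter, −0.0072 with DESeq2 and −0.032 without both replicate 3 libraries, where SLC16A3 was −0.14. Over VCaP libraries left out, BNIP3 ranged from −0.025 to 0.45, SLC16A3 from −0.36 to 1.16, HK2 from −0.98 to 0.042, TPI1 from −0.075 to 0.055, PGK1 from −0.034 to 0.15, ENO1 from −0.091 to 0.065 and PDK1 from −0.039 to 0.40. Over results and settings, 478 of the PC3 values and 506 of the VCaP values kept their direction and side of the threshold, 18 and 11 lost a call, 20 and 17 gained one and 16 and 21 changed sign. Adding the counts of overlapping genes that have only a clone name moved no count of calls. In VCaP only those on the same strand were added. CSNK1D and SENP1 were not added, so the overlaps of SLC16A3 and PFKM with them were not checked in this way. BNIP3L and ANGPTL4 in VCaP and SLC2A3 in PC3 had few counts, which limits the precision of their values.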

Other observations

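BNIP3L was close to 0 in every VCaP library, and the neighbouring gene PPP2R2A, looked at after that value was seen, had 2 counts over all 6 VCaP libraries against 56.4 ± 1.28 CPM in PC3 NSI libraries (SD, n = 3). DPYSL2, farther along, read 50.6 ± 2.74 CPM in VCaP NSI libraries. BNIP3L and PPP2R2A were near 0 with NSI as well as with siFOXA1.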
